A study of Mus musculus with 233 samples.

Results

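Striatal RNA was compared between zQ175 mice and wild-type (WT) littermates that had both received the huntingtin repressor virus nZFP at 6 months of age and were collected at 10 months, after 4 months of treatment. The question was which expression differences between the genotypes were still measured where the repressor was present. The comparison held 13 of the 233 libraries in the series: 5 from zQ175 striata with nZFP and 8 from WT striata with nZFP, each from another mouse. The zQ175 libraries were replicates 1, 3, 4, 6 and 8 (3 males and 2 females), and per-library values of zQ175 mice are listed in that order. The WT libraries came from 4 males and 4 females, and their values are given as lowest, median and highest. A further zQ175 nZFP library, replicate 2, stood apart from the others and was left out. All 15913 gene entries with enough counts were tested, and vector entries were kept apart.

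The zQ175 mice were heterozygous zQ175DN knock-ins, in which human HTT exon 1 with an expanded CAG tract stands in place of exon 1 of one mouse Htt allele. All mice were injected stereotactically in both striata with AAV2/2+1 viruses, a different virus in each hemisphere. The nZFP virus expressed ZFP30645, an HA-tagged zinc finger repressor directed at expanded CAG repeats, from the human synapsin promoter, which is active in neurons. The DBD control virus expressed the HA-tagged repressor without its DNA-binding domain from the same promoter, and the Estop control virus carried non-coding stuffer DNA. DBD libraries (8 zQ175 and 7 WT, after 1 outlying WT library was left out) and Estop libraries (8 of each genotype) of the same ages were used to set the genotype difference under nZFP beside that under a control virus. These 44 libraries came from 24 mice, and 20 mice gave both hemispheres, so nZFP and control libraries are largely from the same animals. The labels give no WT or zQ175 striatum without virus, so every value below is from an injected striatum.

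Huntingtin is a large scaffold protein, and an expanded CAG tract in exon 1 of its gene, read as a long run of glutamines, causes Huntington's disease. The striatum is built mostly of GABAergic medium spiny neurons, which are the cells most affected. Those of the direct pathway carry the dopamine receptor Drd1, and those of the indirect pathway carry Drd2, Adora2a and the opioid precursor Penk. In knock-in models the striatum loses expression of genes that mark these neurons, while genes normally kept silent in adult neurons, many of them Polycomb targets, become detectable.

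The repeat is shown here because it is what the repressor reads and what separates the genotypes. The first 120 coding bases of the mouse transcript Htt-201 lie in exon 1 at chr5:34761907-34762026 on the plus strand of GRCm38, and the capitals mark the longest uninterrupted run of CAG in that stretch, 4 units.
Htt: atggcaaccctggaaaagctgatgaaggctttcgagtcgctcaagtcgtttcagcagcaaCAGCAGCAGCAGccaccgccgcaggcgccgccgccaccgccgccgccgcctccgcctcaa
The normal mouse allele, present in both genotypes, has this short run. The expanded human exon 1 of the knock-in allele is absent from the reference and is not printed.

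Htt was lower in every zQ175 library than in any WT library. In CPM, a gene's count scaled to a common library size and not to gene length, it had 81.7, 76.0, 72.2, 75.6 and 88.1 CPM in zQ175 nZFP libraries, against 92.5, 148 and 157 CPM (lowest, median, highest) in WT nZFP libraries. All 5 zQ175 values lay below the WT range, as they did for 5.14% of the 15913 genes, and the lowest WT value (replicate 2) came close to them. The mean was 78.7 ± 6.27 CPM in zQ175 and 140 ± 21.8 CPM in WT (SD, n = 5 and 8), 56.4% of WT, a log2 fold change of -0.82 (SE 0.12, adjusted p = 1.9e-06). The same genotype difference was -0.46 under DBD and -0.61 under Estop, and the difference between nZFP and the control viruses, -0.29 (SE 0.14), did not pass the test (adjusted p = 0.59). The Htt entry counts reads of the gene as a whole and does not separate the alleles. The added entry Htt.HD, at 2, 2, 0, 1 and 2 reads in zQ175 nZFP libraries and at 0 reads in 7 of 8 WT nZFP libraries and 1 read in WT replicate 5, differed between the genotypes in an exact two-sided permutation test (p = 0.00699, adjusted over 3 added entries 0.0210) but rests on 0 to 2 reads a library. The sources used here do not state which sequence Htt.HD stands for, and no level of the knock-in allele is drawn from it.

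Both groups held repressor RNA. ZFP-30645 averaged 567 ± 34.4 CPM in zQ175 nZFP libraries (515 to 609) and 712 ± 153 CPM in WT nZFP libraries (511 to 979), a difference that an exact two-sided permutation test over the libraries put at p = 0.0614 (adjusted over 3 entries 0.0614). WPRE, the viral RNA element that stabilises the vector transcript, averaged 916 ± 91.6 CPM in zQ175 and 1159 ± 194 CPM in WT (exact permutation p = 0.0303, adjusted 0.0455). These calls rested on single libraries. With zQ175 replicate 2 kept, whose WPRE level was 2613 CPM, the WPRE difference (zQ175 minus WT) was 39.4 CPM (exact permutation p = 0.961), and without zQ175 replicate 1 it was -210.4 CPM (exact permutation p = 0.0687). For ZFP-30645 the unadjusted exact permutation p was 0.0246 with replicate 2 kept, 0.0366 without WT replicate 2 and 0.0189 without WT replicate 3. The part that the difference in vector RNA has in the results below was not tested. Gene counts per library ran from 32.3 to 46.2 M in the nZFP libraries. The library left out, zQ175 nZFP replicate 2, had an index of transcript length (median log2 deviation of long genes minus that of short genes) of -1.28, and the WT DBD library left out had -1.13, against -0.52 to 0.24 in the 44 libraries used. Among those used, zQ175 nZFP replicate 8 had low vascular markers, with a summed level of 321 CPM over 14 endothelial genes, against 516 to 552 CPM in the other 4 zQ175 nZFP libraries and 560 to 618 CPM in WT nZFP libraries. The lowest index of transcript length among the nZFP libraries used was -0.335, in WT replicate 2. That library also had the lowest Htt level of the WT nZFP libraries. The part of the index in that level was not tested.

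Under nZFP, 1805 genes were higher (11.3% of those tested) and 2059 genes were lower (12.9%) in zQ175 than in WT at an adjusted p under 0.05, 24.3% in all. Counts within the gene lists below are to be read beside these shares. With zQ175 nZFP replicate 2 kept, the counts were 2292 higher and 1767 lower, of which 2824 genes were also called without it. Leaving out any other of the 13 libraries gave 3110 (without zQ175 replicate 8) to 4116 genes (without WT replicate 5). The libraries of the genotypes did not overlap for 10.2% of genes, with zQ175 above WT for 5.01% and below for 5.14%. Levels of 10 of the genes described below are plotted by library.

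**Figure D1:**
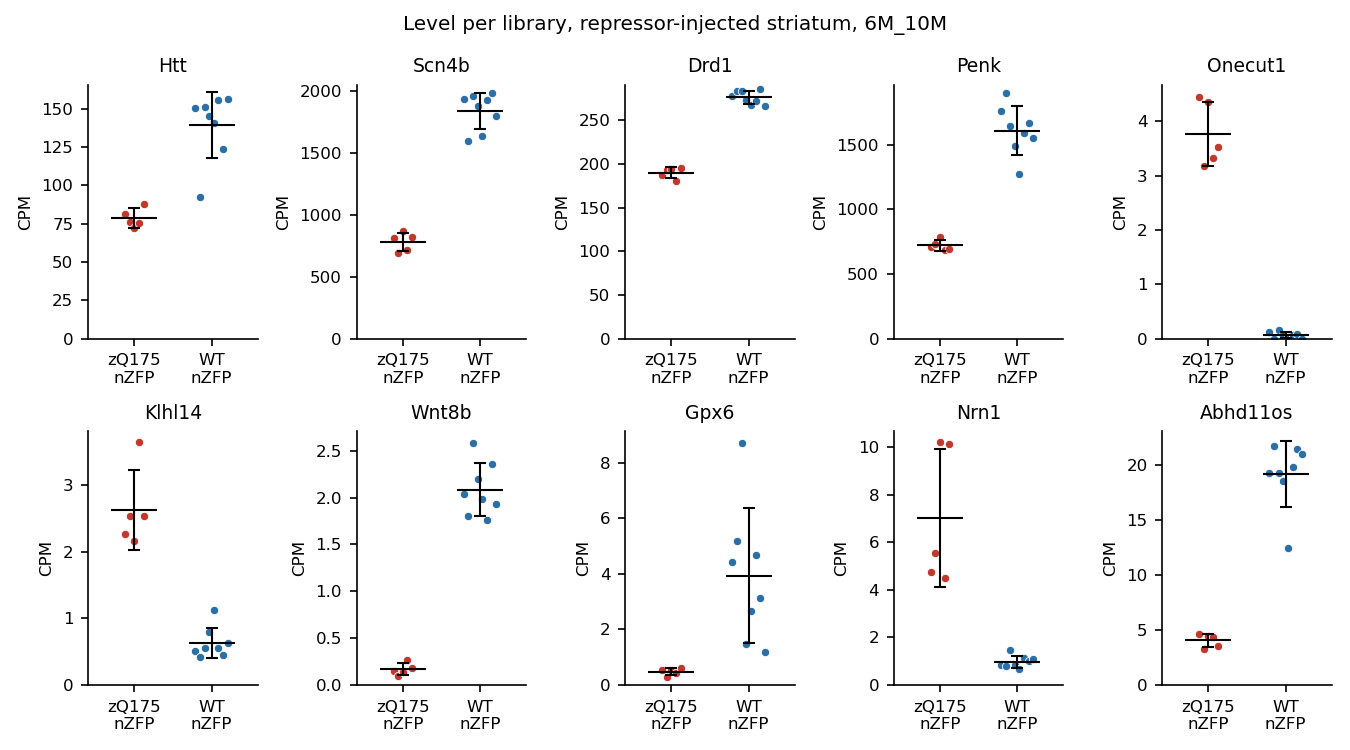
CPM of 10 genes in each nZFP library of 6M_10M (linear axes), zQ175 left of WT, with points for libraries and the mean ± SD (n = 5 and 8). The genotypes are apart for all 10 genes: Htt, Scn4b, Drd1, Penk, Wnt8b, Gpx6 and Abhd11os lie lower in zQ175, and Onecut1, Klhl14 and Nrn1 lie higher.

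The genes with the largest positive fold changes included developmental factors near 0 in WT striatum. Onecut1, a cut-homeobox transcription factor, had 4.46, 3.18, 4.36, 3.33 and 3.54 CPM in zQ175 nZFP libraries, against 0, 0.0739 and 0.165 CPM in WT nZFP libraries (log2 fold change 5.78, SE 0.40, adjusted p = 3.6e-15). Shox2, a homeobox factor of limb and heart development, had 4.63, 5.43, 6.86, 5.38 and 8.38 CPM in zQ175, against 0.0574, 0.2 and 0.376 CPM in WT (4.84, SE 0.24, adjusted p = 4.9e-20). Every zQ175 library was thus far above every WT library for both. Wt1, the Wilms tumour zinc finger factor of the kidney, had 4.38, 3.39, 5.76, 4.34 and 5.05 CPM in zQ175, against 0.115, 0.168 and 0.299 CPM in WT (4.68, SE 0.19, adjusted p = 3.9e-23). These 3 genes sit at a few reads per WT library, so the size of their fitted fold changes is uncertain. Further genes higher in all 5 zQ175 libraries were Nrn1 (neuritin, a membrane-anchored protein of neurite growth; 2.85, SE 0.22), Dsp (desmoplakin of desmosomes; 2.34), Kazald1 (a secreted protein with a Kazal domain; 2.33), Sfmbt2 (a Polycomb group protein; 2.27), Klhl14 (a BTB-Kelch protein; 2.02) and Abhd1 (1.76). Nrn1 spread most among them, with 4.76, 5.57, 10.2, 4.50 and 10.1 CPM in zQ175, against 0.689, 0.931 and 1.49 CPM in WT.

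A few large values rested on 1 to 3 libraries. The immunoglobulin kappa segment Igkv6-32 had 0.403, 0.142, 11.3, 44.1 and 53.7 CPM in zQ175, against 0.143, 0.291 and 3.49 CPM in WT (4.71, SE 1.33, adjusted p = 0.00778), so only zQ175 replicates 4, 6 and 8 were high and the groups overlapped. Igkv6-15 was at 26.4 CPM in zQ175 replicate 4 and at most 0.187 CPM in the other zQ175 libraries, and Igkv1-135, the gene of the largest negative fold change (-5.72, SE 2.16, adjusted p = 0.049), was at 20.8 CPM in WT replicate 5 with a WT median of 0.0894 CPM. Arhgap30, a GTPase-activating protein of blood cells, had 4.13, 0.379, 4.17, 4.98 and 0.349 CPM in zQ175, against 0.248, 0.457 and 0.563 CPM in WT, high in 3 of 5 zQ175 libraries. Without zQ175 replicate 4 the fold change of Igkv6-15 was -1.88 in place of 3.94.

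The genes with the largest negative fold changes included secreted Wnt ligands and an antioxidant enzyme. Wnt8b had 0.151, 0.0948, 0.138, 0.266 and 0.186 CPM in zQ175 nZFP libraries, against 1.76, 2.01 and 2.59 CPM in WT nZFP libraries (-3.63, SE 0.25, adjusted p = 2.5e-15). Wnt4 averaged 0.645 ± 0.215 CPM in zQ175 and 4.29 ± 0.781 CPM in WT (-2.72, SE 0.20). Both ligands were separate between the genotypes in every library. Gpx6, a glutathione peroxidase of the striatum, had 0.554, 0.284, 0.551, 0.426 and 0.605 CPM in zQ175, against 1.20, 3.79 and 8.72 CPM in WT (-2.93, SE 0.30, adjusted p = 2.4e-10), and the wide spread was that of the WT libraries. Vwa7 (-2.83), Tmem114 (-2.37), the interleukin-2 receptor chain Il2rb (-2.29), the serine protease Tmprss6 (-2.23), the antisense RNA Abhd11os (-2.23), the lipid transfer protein Sec14l3 (-2.03) and Ddit4l (-1.82), an inhibitor of mTOR signalling, were also lower in all 5 zQ175 libraries than in any WT library. Abhd11os lies opposite Abhd11, and since counting by strand is not stated in the sources used here, its reads may in part be those of its partner. Ptprv (-1.96) was at 7.97 CPM in WT replicate 5, beside a WT median of 0.961 CPM.

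Medium spiny neuron identity genes were lower almost throughout. Of 45 members tested, 39 were lower and 1 was higher in zQ175, and the median log2 fold change was -0.44, beside -0.01 over all genes tested. For 28 members all zQ175 libraries lay below all WT libraries. The count of lower members was 39 whichever of the 13 libraries was left out, and 38 with replicate 2 kept. Summed over the list, the level was 21660 to 23040 CPM in zQ175 nZFP libraries and 29470 to 34820 CPM in WT nZFP libraries. In bulk tissue, fewer cells of a type and less RNA per cell cannot be told apart.

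Scn4b, the beta-4 subunit of sodium channels, had 814, 696, 868, 717 and 822 CPM in zQ175, against 1598, 1902 and 1986 CPM in WT, 42.6% of the WT mean (-1.22, SE 0.051, adjusted p = 4.3e-23). Rgs14, a regulator of G protein signalling, had 35.1, 38.5, 35.7, 37.3 and 38.8 CPM in zQ175, against 72.5, 82.0 and 97.1 CPM in WT (-1.16, SE 0.077). For both, every zQ175 library lay below every WT library. Arpp19 (a cAMP-regulated phosphatase inhibitor; -0.89), Pde1b (a calmodulin-dependent phosphodiesterase; -0.62), Cnr1 (the cannabinoid receptor; -0.82), Rgs9 (-0.60) and the transcription factors Bcl11b (-0.32) and Foxp1 (-0.24) were lower as well. Ryr1, a calcium release channel, had the largest fold change of the list at -1.77 (SE 0.18), with 3.85 ± 0.487 CPM in zQ175 and 13.2 ± 3.88 CPM in WT. The member that was higher was the orphan receptor Gpr149 (0.72, SE 0.081). The 5 members that did not pass were Rasgrf2 (-0.31), Pde1c (0.15), Gnal (-0.07), Sez6 (-0.01) and Six3 (-0.02).

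**Figure D2:**
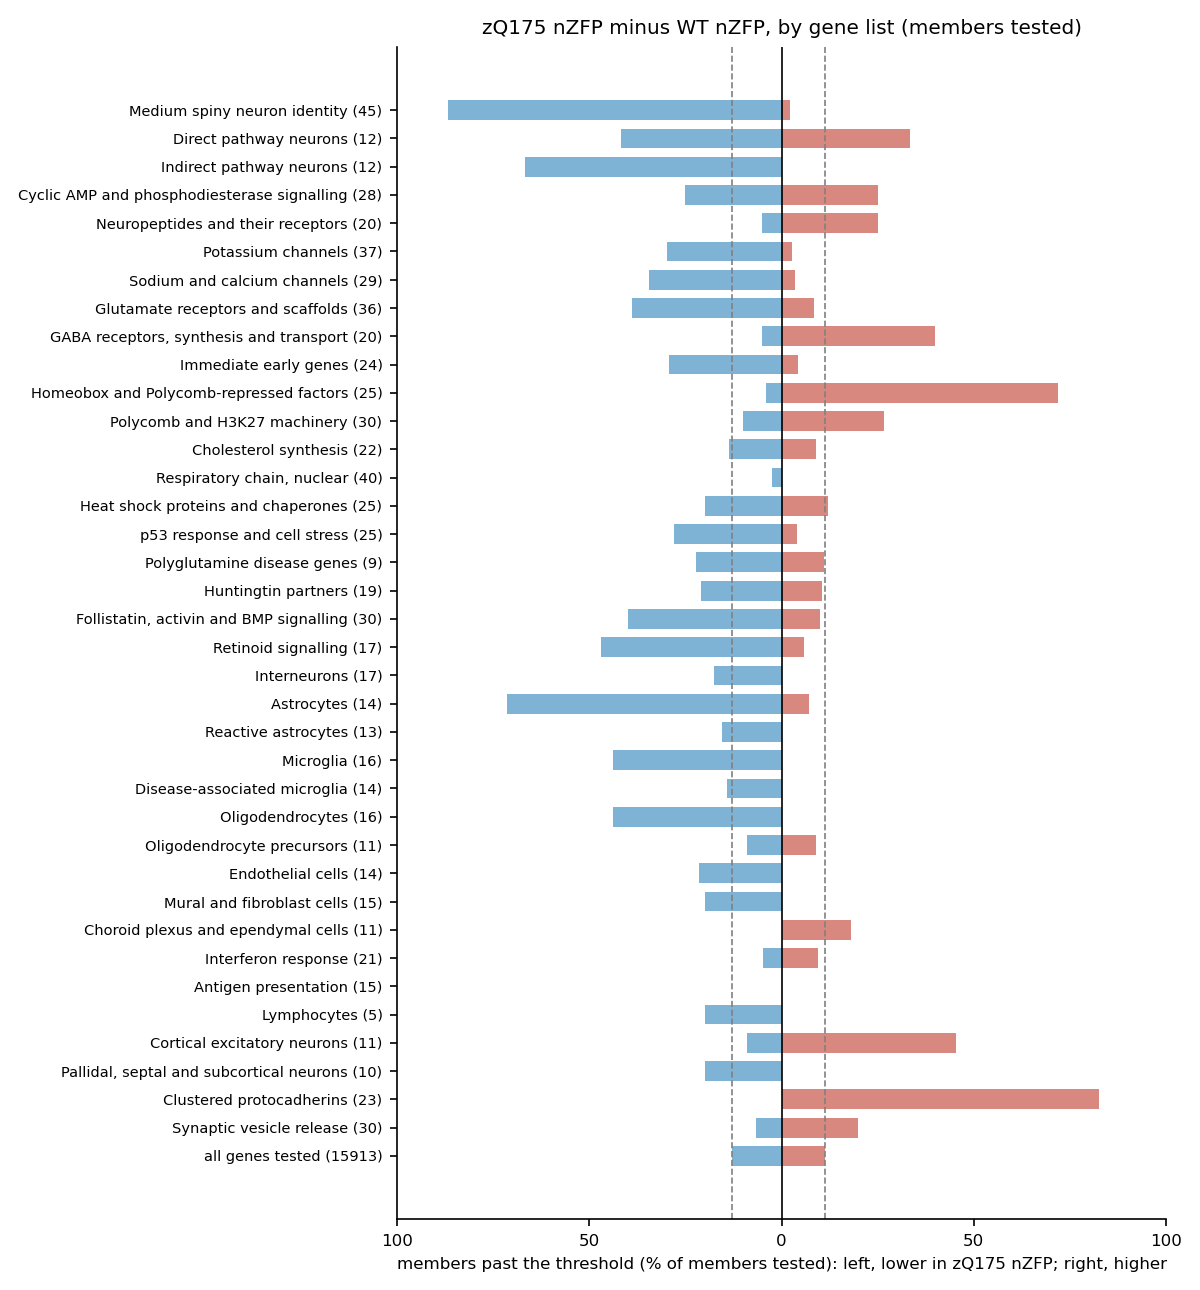
Percent of the tested members of each gene list that were higher or lower in zQ175 nZFP than in WT nZFP libraries at an adjusted p under 0.05, with dashed lines at the shares over all 15913 genes (11.3% higher, 12.9% lower). Medium spiny neuron identity, indirect pathway neurons and astrocytes have the largest lower shares (for astrocytes 10 of 14 genes, but 4 of 14 without zQ175 replicate 8). The largest higher shares are those of clustered protocadherins, tested mostly in the beta cluster, and of the homeobox list, whose members were filtered on level.

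Genes of the indirect pathway were lower in 8 of 12 members tested and higher in none (median -0.30), and genes of the direct pathway were lower in 5 and higher in 4 of 12 (median -0.11). Penk had 710, 732, 787, 688 and 691 CPM in zQ175 nZFP libraries, against 1271, 1619 and 1905 CPM in WT nZFP libraries (-1.15, SE 0.087, adjusted p = 2.8e-14). The adenosine receptor Adora2a (-0.74), the orphan receptor Gpr6 (-0.72), Drd2 (-0.65) and the pyrimidine-degrading enzyme Upb1 (-1.31) were lower too, each without overlap. Grik3 (0.04), Adk (-0.02), Oprd1 (-0.28) and Ttc12 (-0.19) did not pass. In the direct pathway list, Drd1 had 187, 193, 194, 180 and 195 CPM in zQ175, against 267, 275 and 285 CPM in WT (-0.54, SE 0.042, adjusted p = 9.4e-14), narrow ranges far apart. The muscarinic receptor Chrm4 (-0.69) and the phosphatase Dusp14 (-0.99) were lower, while the substance P precursor Tac1 (0.28, SE 0.088, adjusted p = 0.015) and the developmental factors Isl1 (0.23), Ebf1 (0.22) and Eya1 (0.70) were higher, so members of this list moved in both directions.

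Among 28 genes of cyclic AMP signalling, 7 were lower and 7 higher. Among the lower ones, the cyclase Adcy5 had 1420, 1332, 1379, 1356 and 1340 CPM in zQ175, against 1820, 2160 and 2300 CPM in WT (-0.63, SE 0.047). Ppp1r1b (DARPP-32, a phosphatase inhibitor controlled by dopamine) averaged 2089 ± 131 CPM in zQ175 and 3417 ± 308 CPM in WT (-0.71, SE 0.073), its relative Ppp1r1a was at -0.81, and the phosphodiesterase Pde10a at -0.77. The higher ones included the protein kinase A subunits Prkar1b (0.27), Prkacb (0.20) and Prkar2a (0.29) and the phosphodiesterases Pde1a (0.43) and Pde4d (0.45). Of 20 neuropeptide and receptor genes, 5 were higher and Penk alone was lower. The nociceptin receptor Oprl1 had 30.8, 31.9, 33.8, 31.1 and 30.1 CPM in zQ175, against 19.3, 20.6 and 22.5 CPM in WT (0.60, SE 0.058), and neurotensin (Nts, 0.99) and the somatostatin receptor Sstr2 (0.77) were higher as well.

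Ion channel genes that changed were mostly lower. Of 37 potassium channel genes, 11 were lower and 1 was higher, and of 29 sodium and calcium channel genes, 10 were lower and 1 was higher. The channel subunits Kcnh3 (-0.59), Kcnip2 (-0.54) and Kcnab1 (-0.40) did not overlap between the genotypes. The exception among potassium channels was Kcnj3, a subunit of G protein-gated inward rectifiers, with 21.0, 20.2, 20.5, 19.9 and 20.4 CPM in zQ175, against 11.1, 12.2 and 12.8 CPM in WT (0.76, SE 0.059, adjusted p = 5.6e-14). Of 36 genes for glutamate receptors and their scaffolds, 14 were lower and 3 higher, with Grm4 (-0.49), Shank3 (-0.50) and Homer1 (-0.61) among the lower ones. GABA genes went the other way, with 8 of 20 higher and 1 lower (median 0.14). The receptor subunit Gabra5 had 28.5, 35.6, 26.8, 29.2 and 28.3 CPM in zQ175, against 14.4, 17.9 and 21.6 CPM in WT (0.73, SE 0.087), and Gabra3 (0.31) and the synthesis enzymes Gad2 (0.26) and Gad1 (0.15) were higher. Gabrd, the delta subunit of extrasynaptic receptors, was the lower member (-0.49).

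Immediate early genes had a median of -0.36, with 7 of 24 lower and 1 higher. Egr2 had 6.37, 10.1, 8.95, 3.92 and 9.96 CPM in zQ175, against 9.15, 22.9 and 35.7 CPM in WT (-1.63, SE 0.38, adjusted p = 0.00121), and Egr3 was at -0.41 and Jun at -0.32. Nr4a2 was the higher one (1.23, SE 0.38, adjusted p = 0.0144). Fos (0.46, SE 0.47), Arc (-0.30, SE 0.30) and Npas4 (0.16, SE 0.50) did not pass, with errors as large as the differences. Of 30 genes of synaptic vesicle release, 6 were higher and 2 lower, beside 11.3% and 12.9% of all genes tested. The calcium sensor Syt2 (-0.74) had 44.9 ± 3.64 CPM in zQ175 and 75.2 ± 7.26 CPM in WT, and Rph3a (0.38) had 250 ± 13.9 CPM in zQ175 and 194 ± 26.4 CPM in WT.

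Homeobox and other Polycomb-repressed factors had a summed level of 137 to 148 CPM in zQ175 and 97.7 to 109 CPM in WT, of which Onecut2 averaged 44.6 CPM in zQ175 and 24.6 CPM in WT. Of 61 factors listed, 25 had enough counts to be tested, and a factor silent in WT could enter only through the groups in which it was present, so the 18 that were higher and the 1 that was lower (Lhx2, -0.33) are a description of those 25, of which 11 overlapped between the genotypes. Besides Onecut1, Shox2 and Wt1, Hoxc4 had 1.28, 1.42, 4.54, 0.853 and 2.84 CPM in zQ175, against 0, 0.0267 and 0.165 CPM in WT (5.42, SE 0.39, adjusted p = 7.2e-15), and Hoxc5 (4.82), Pou4f1 (3.42) and Neurod2 (2.98) were also higher, at lower levels. Of 30 genes of the Polycomb and H3K27 machinery, which keeps such factors silent, 8 were higher and 3 lower, beside 11.3% and 12.9% of all genes tested. Cbx8 had 20.3, 23.9, 24.7, 20.3 and 26.4 CPM in zQ175, against 10.2, 11.5 and 13.2 CPM in WT (1.00, SE 0.082, adjusted p = 2.3e-13). Cbx7 was lower (-0.32), and both are CBX subunits of the repressive complex PRC1. The PRC2 subunit Suz12 was higher (0.23), while the methyltransferases Ezh1 (-0.04) and Ezh2 (-0.08) and the subunit Eed (-0.05) did not pass.

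Of 57 clustered protocadherins, adhesion proteins that give neurons a surface identity, 23 were tested, 19 were higher and none was lower (median 0.46). Those tested were the genes of the beta cluster, Pcdha11 and Pcdhgc4. The other genes of the alpha and gamma clusters were not among those tested, so the result describes mainly the beta cluster. With zQ175 replicate 2 kept, 16 were higher. Pcdhb9 had 27.4, 22.9, 28.3, 25.4 and 28.4 CPM in zQ175, against 13.9, 15.9 and 18.2 CPM in WT (0.72, SE 0.057), and Pcdhb3 (0.90), Pcdhb12 (0.79) and Pcdhb20 (0.64) were apart in every library too. The genes of the beta cluster are close copies of each other, so their reads may have been divided between them and the values of single members are uncertain.

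Lists of stress, metabolism and signalling changed to different extents. Over all genes tested 12.9% were lower and 11.3% higher, and in lists this short a count near these shares is not read as a result about the list. Of 25 genes of the p53 and stress response, 7 were lower and 1 higher, among them Cdkn1a (p21, a cell cycle inhibitor), with 9.06 ± 0.592 CPM in zQ175 and 14.0 ± 1.56 CPM in WT (-0.60, SE 0.084), and Gadd45a (-0.61). Of 30 genes of follistatin, activin and BMP signalling, 12 were lower and 3 higher. The activin subunit Inhba (-0.77), the ligand Bmp6 (-0.50) and the BMP target Id4 (-0.48) fell, and Fstl5 rose (0.59). Of 17 retinoid genes, 8 were lower, including the retinol carrier Rbp4 (-0.78) and the receptors Rxrg (-0.61) and Rarb (-0.33), and the retinoic acid-degrading enzyme Cyp26b1 was higher (0.88). Of 25 chaperone genes 5 were lower and 3 higher. Of 22 cholesterol synthesis genes 3 were lower and 2 higher, shares near the 12.9% and 11.3% of all genes. Of 40 nuclear respiratory chain genes 1 was lower (Uqcrb, -0.36), whereas with zQ175 replicate 2 kept 11 were higher and none lower. Of 19 huntingtin partners, 4 were lower (Itpr1, -0.60, first by size) and 2 were higher, with the huntingtin-associated protein Hap1 at 108 ± 8.55 CPM in zQ175 and 77.9 ± 7.83 CPM in WT (0.47, SE 0.073). Of 9 polyglutamine disease genes, 2 were lower, Htt and Atxn1 (-0.25, SE 0.071), and 1 was higher.

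Markers of other cell types also differed, beside 12.9% lower and 11.3% higher over all genes tested. Of 16 oligodendrocyte genes 7 were lower and none higher, and the summed level was 6694 to 8283 CPM in zQ175 and 8688 to 10350 CPM in WT. The myelin protein Mal had 267, 253, 255, 299 and 249 CPM in zQ175, against 324, 360 and 435 CPM in WT (-0.47, SE 0.061, adjusted p = 8.1e-08). The count of lower genes was 7 whichever of the 13 libraries was left out. Enpp6, a marker of newly formed oligodendrocytes, was higher, with 15.0 ± 1.29 CPM in zQ175 and 8.47 ± 1.05 CPM in WT (0.81, SE 0.093). Of 14 astrocyte genes 10 were lower, led by the glutamine synthetase Glul (-0.39, SE 0.067), and S100b was higher (0.39), but without zQ175 replicate 8, the library with low vascular markers, 4 were lower. Of 16 microglia genes 7 were lower, among them Cx3cr1 (-0.19), and without replicate 8 it was 1. Of 14 endothelial and 15 mural and fibroblast genes 3 each were lower, such as Esam (-0.52) and Tagln (-0.89), and without replicate 8 it was 1 each. Reactive astrocyte genes (2 of 13 lower), microglial disease genes (2 of 14 lower, Apoe -0.39 and Axl -0.20), oligodendrocyte precursors (1 higher and 1 lower of 11) and interneurons (3 of 17 lower, Th -0.46 first by p) gave few calls. With zQ175 replicate 2 kept, 6 astrocyte and 2 microglia genes were lower, and 3 in place of 6 vesicle genes, 4 in place of 7 cyclic AMP genes and 1 in place of 3 glutamate genes were higher.

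Markers of neighbouring tissue were measured too. Of 11 cortical excitatory neuron genes 5 were higher and 1 lower, with a summed level of 295 to 311 CPM in zQ175 and 247 to 276 CPM in WT, but the defining markers were near 0: Slc17a7 averaged 1.23 CPM in zQ175 and 1.45 CPM in WT, Tbr1 was at about 0.13 CPM in both, and the calls included Nrn1 (2.85). Of 10 pallidal, septal and subcortical genes 2 were lower, and of 11 choroid plexus and ependymal genes 2 were higher at levels of 1 to 2 CPM (Kl, 0.54, and Enkur, 1.11). Of 5 lymphocyte genes tested Cd4 was lower (-0.56), while CD3 and CD8 genes were not among those with enough counts. The other 4 genes tested averaged under 1 CPM, so nothing about lymphocytes is read from Cd4. Interferon response genes gave 2 higher and 1 lower of 21, and the interferon-regulated transcription factor Irf9 was high in zQ175 replicates 3 and 4 (17.3 and 14.5 CPM, beside 8.00 to 8.53 CPM in the other 3 zQ175 libraries and 7.08 to 10.6 CPM in WT libraries). Of 15 antigen presentation genes none passed under edgeR, DESeq2 or with zQ175 replicate 2 kept. The part that tissue composition has in the neuronal differences was not tested.

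The genotype difference under nZFP was then set beside that under the control viruses. At the same threshold, 5061 genes (31.8%) were called under DBD and 5384 genes (33.8%) under Estop, against the 3864 genes (24.3%) under nZFP, though the nZFP comparison has fewer libraries (5 and 8, against 8 and 7 or 8 and 8). Genes called with the same sign under all 3 viruses numbered 1245 higher and 1447 lower. A further 657 higher and 595 lower genes were called under both control viruses and not under nZFP, and 269 higher and 348 lower were called under nZFP alone, none of which passed the test against the control viruses. To compare sizes on genes that nZFP libraries did not choose, the 5384 genes called under Estop were described under the other viruses. Of these, 55.5% were called with the same sign under nZFP, and their log2 fold changes were in the median 72.7% of those under Estop; under DBD it was 73.2% called and 88.9% of the size. With genes chosen under DBD in place of Estop, the median was 75.0% under nZFP and 94.2% under Estop. The 3 comparisons share mice, the chosen genes favour the virus that chose them, and these percentages carry no test.

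**Figure D3:**
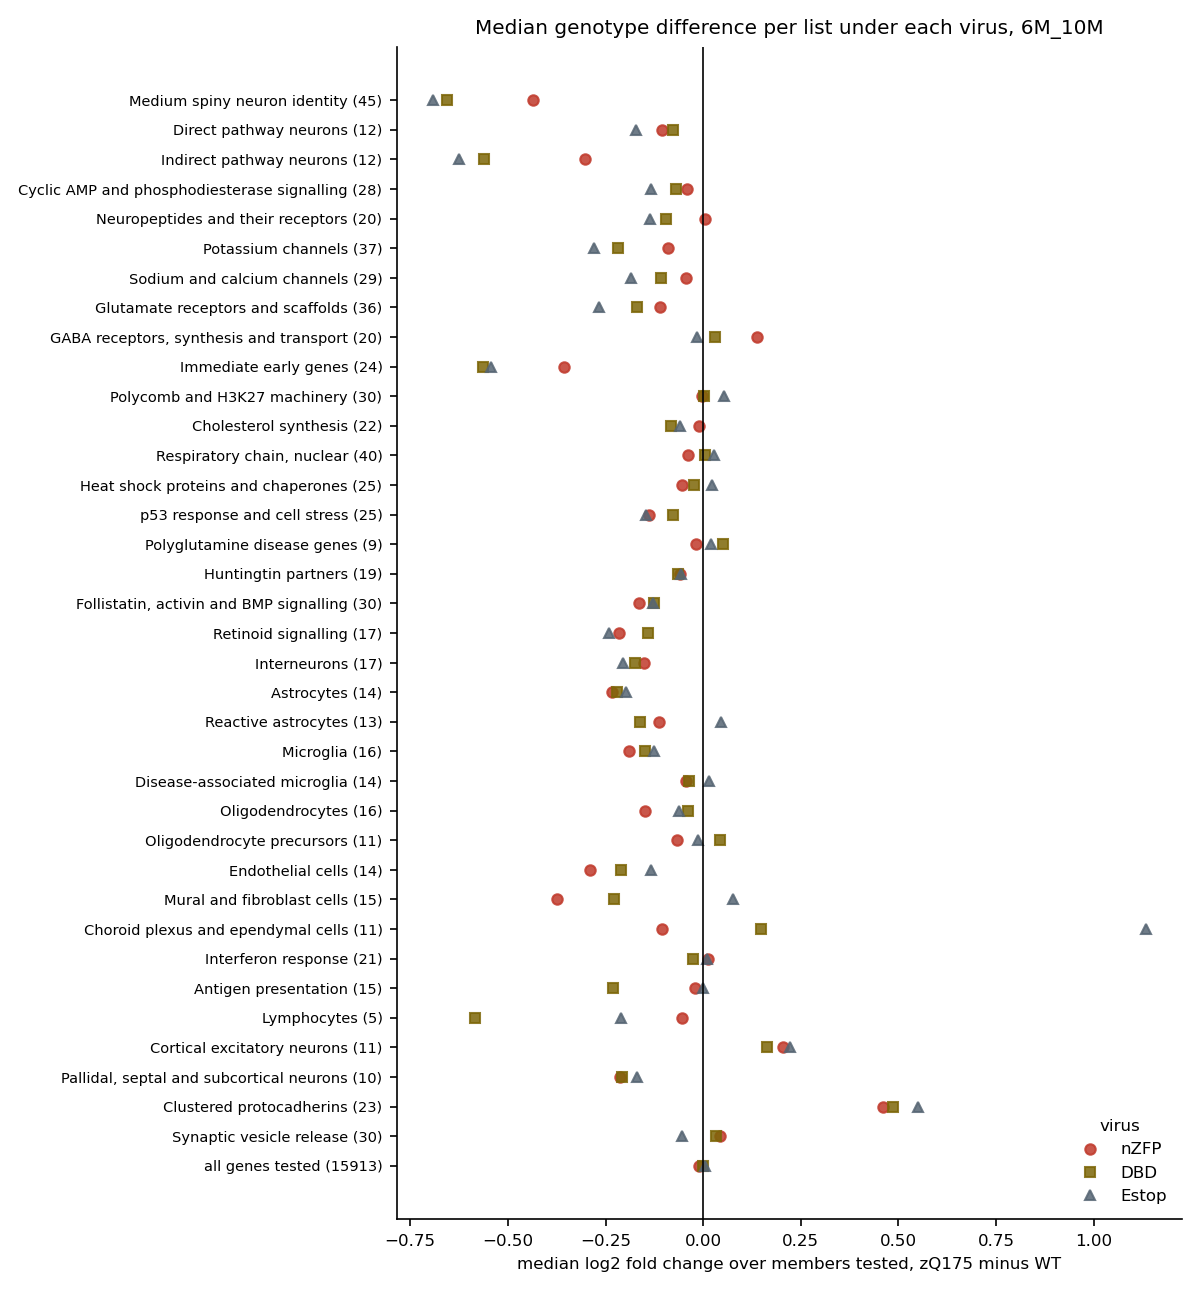
Median log2 fold change (zQ175 minus WT) of each gene list except the homeobox list under nZFP, DBD and Estop, 1 row per list, with a line at 0. For medium spiny neuron identity the medians are -0.44, -0.66 and -0.69, and for indirect pathway neurons -0.30, -0.56 and -0.63. For clustered protocadherins, tested mostly in the beta cluster, they are 0.46, 0.49 and 0.55.

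By list, the median under nZFP lay nearer to 0 than under either control virus for medium spiny neuron identity (-0.44, against -0.66 under DBD and -0.69 under Estop), indirect pathway neurons (-0.30, against -0.56 and -0.63), potassium channels (-0.09, against -0.22 and -0.28) and immediate early genes (-0.36, against -0.56 and -0.54). For clustered protocadherins, tested mostly in the beta cluster, it was 0.46, against 0.49 and 0.55. For oligodendrocytes it lay farther from 0 (-0.15, against -0.04 under DBD and -0.06 under Estop), and for astrocytes it was about level (-0.23, against -0.22 and -0.20). Other lists farther from 0 included GABA genes (0.14, against 0.03 and -0.02) and follistatin, activin and BMP signalling (-0.16, against -0.13 and -0.13). Microglia (-0.19, against -0.15 and -0.13) and endothelial cells (-0.29, against -0.21 and -0.13) were also among them. For these 2 lists the nZFP side leaned on zQ175 replicate 8. Without that library the lower genes went from 7 to 1 for microglia and from 3 to 1 for endothelial cells. Medians without it are not given here. Direct pathway neurons lay between the controls (-0.11, against -0.08 and -0.17). These medians carry no test.

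Gene by gene, the genotype difference under nZFP differed from the mean of those under DBD and Estop for 47 genes (0.295% of those tested), 41 (0.258%) with a higher and 6 (0.0377%) with a lower log2 fold change under nZFP. At an unadjusted p under 0.05 it was 1345 genes. This fit has no term for the mouse, though most mice gave an nZFP and a control library; by limma voom with the mouse as a block it was 63 genes, 45 of them among the 47. All 47 were called under both control viruses, 38 were still called under nZFP, and for 46 the fold change was smaller in size under nZFP than under each control virus. The exception was Dnajc12, a co-chaperone, at -0.29 under nZFP, 0.25 under DBD and 0.34 under Estop. Dnajc12 was lower with nZFP than with DBD in both genotypes. On the log2 scale this step was -1.01 in zQ175 (adjusted p = 3.4e-11) and -0.47 in WT (adjusted p = 0.00022). For the 47 genes, the control differences enter the test against the control viruses, so their opposite sign is in part built in. The count moved with single libraries: it was 21 with zQ175 nZFP replicate 2 kept, 6 with the outlying WT DBD library kept, 23 without WT replicate 1, and 17, 27, 17 and 15 without zQ175 replicates 1, 3, 4 and 6, while the sign of the difference stayed the same for every one of the 47 that could be fitted.

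**Figure D4:**
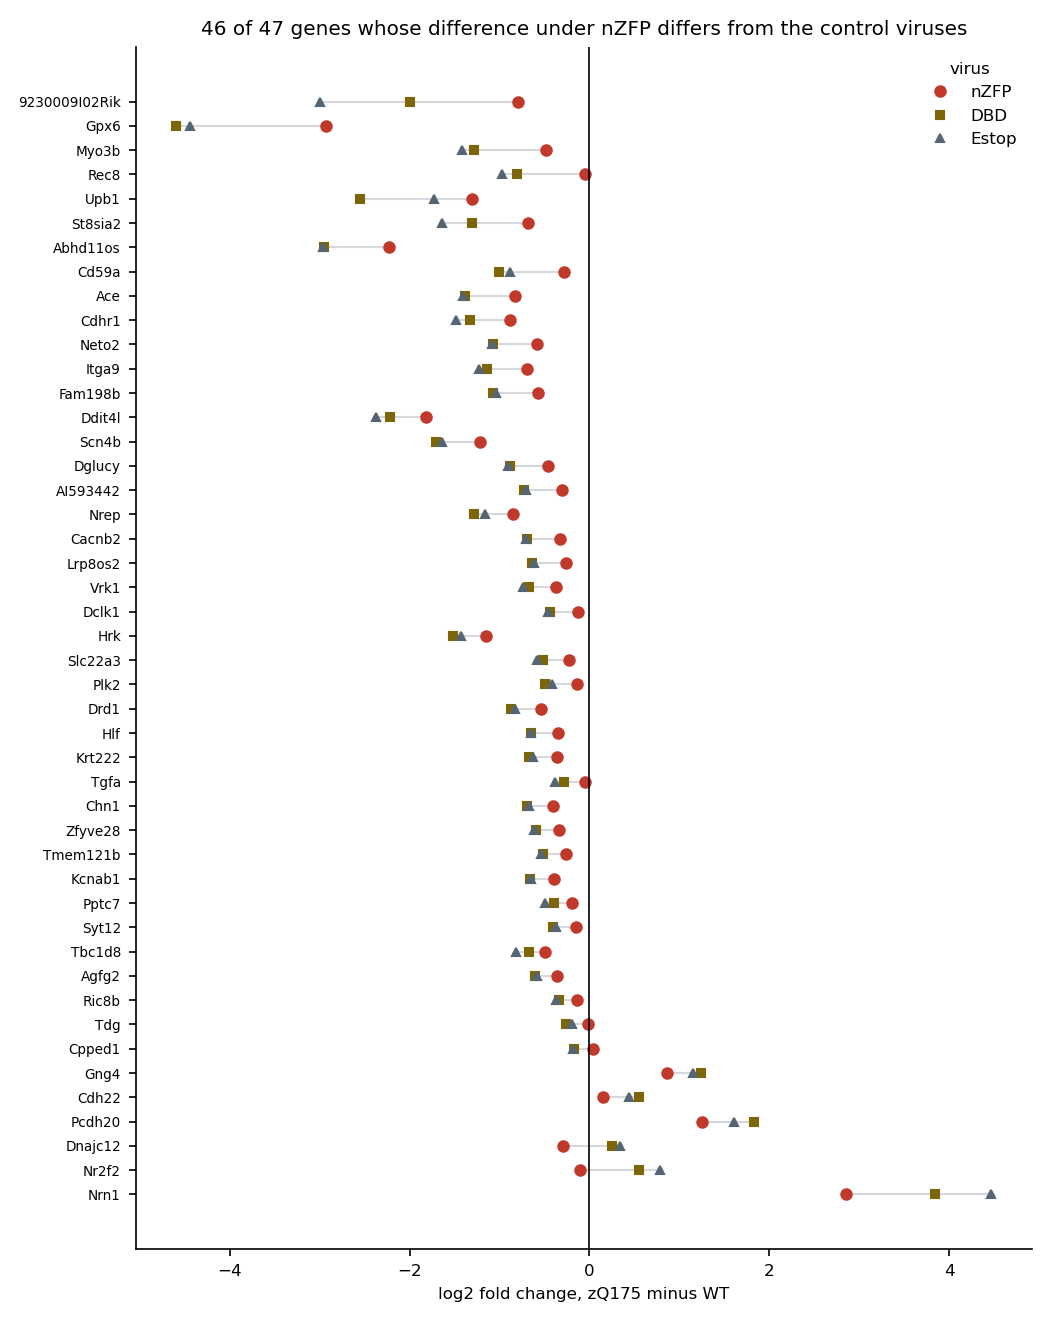
Log2 fold change (zQ175 minus WT) under nZFP, DBD and Estop for 46 of the 47 genes whose genotype difference under nZFP differed from that under the control viruses. Among the genes drawn, the nZFP point lies nearer to 0 than both control points for all but Dnajc12, and Dnajc12, Nr2f2 and Cpped1 lie on the other side of 0 under nZFP.

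Scn4b was first by p. Its genotype difference was -1.22 under nZFP, -1.70 under DBD and -1.64 under Estop (difference 0.45, SE 0.057, adjusted p = 9.4e-06). Its level in zQ175 was 783 ± 73.8 CPM with nZFP, 496 ± 41.5 CPM with DBD and 624.96 ± 39.6 CPM with Estop, and in WT it was 1840 ± 148 CPM with nZFP, 1625 ± 114 CPM with DBD and 1948 ± 121 CPM with Estop (SD). In all 5 zQ175 mice Scn4b was higher in the nZFP hemisphere than in the control hemisphere, by a median ratio of 1.35, and in WT mice in 7 of 8, by 1.03. Even so, the zQ175 libraries with nZFP stayed below every WT library. Drd1 (-0.54, against -0.87 and -0.83; difference 0.32, adjusted p = 0.000317) was likewise higher in the nZFP hemisphere of 5 of 5 zQ175 mice (ratio 1.13) and of 1 of 8 WT mice (0.944). The auxiliary subunits Kcnab1 (-0.40, against -0.67 and -0.65) and Cacnb2 (-0.33, against -0.70 and -0.70), and Ddit4l (-1.82, against -2.22 and -2.38) also kept a genotype difference of smaller size. In the hemisphere ratios here and below, the control hemisphere held DBD in some mice and Estop in others. The genes were picked by a difference made of the same libraries, so the ratios are a description.

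For other genes the steps within a genotype, from DBD to nZFP, were compared. Myo3b, a class III myosin (difference 0.87, SE 0.12, adjusted p = 7.05e-05), averaged 7.47 ± 1.22 CPM in zQ175 with nZFP and 5.49 ± 0.556 CPM with DBD, and 10.8 ± 2.67 CPM in WT with nZFP and 13.7 ± 2.44 CPM with DBD. The step passed the test in zQ175 (0.47, adjusted p = 0.0070) and not in WT (-0.33, adjusted p = 0.071). Rec8, a cohesin subunit known from meiosis (0.84), and Upb1 (0.83) were higher with nZFP in zQ175, by 0.73 and 0.96 on the log2 scale, with no call in WT. Rec8 no longer differed between genotypes with nZFP (-0.04, adjusted p = 0.87), with 1.71, 1.87, 3.05, 2.21 and 1.77 CPM in zQ175, against 1.28, 2.16 and 2.93 CPM in WT. Gpx6 (difference 1.59, SE 0.37, adjusted p = 0.0408) changed in WT. In zQ175 it had 0.484 ± 0.13 CPM with nZFP and 0.614 ± 0.177 CPM with DBD, whereas in WT it had 3.94 ± 2.42 CPM with nZFP and 15.0 ± 4.01 CPM with DBD. Its level was lower in the nZFP hemisphere of 8 of 8 WT mice (ratio 0.241), and the step in WT was -1.93 on the log2 scale (adjusted p = 2.1e-09). St8sia2, a polysialic acid synthase (difference 0.79), was higher in the nZFP hemisphere of all 5 zQ175 mice (ratio 1.11) and lower in that of all 8 WT mice (0.743). The size in zQ175 mice varied with the control virus. It had 8.56 CPM with nZFP and 5.29 CPM with DBD in the mouse of replicate 3, but 8.66 CPM with nZFP and 8.24 CPM with Estop in that of replicate 8. Neither of its steps from DBD passed the test, at 0.32 in zQ175 (adjusted p = 0.30) and -0.31 in WT (adjusted p = 0.20).

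Of the 6 genes with a lower fold change under nZFP, Nrn1 had 7.03 ± 2.89 CPM with nZFP, 15.7 ± 5.19 CPM with DBD and 29.3 ± 8.01 CPM with Estop in zQ175, and 0.986 ± 0.255 CPM with nZFP in WT (difference -1.31, SE 0.27, adjusted p = 0.0192). It was lower in the nZFP hemisphere in all 5 zQ175 mice (ratio 0.337), and still above every WT library with nZFP. Pcdh20, a protocadherin outside the clusters (-0.47), Gng4, a G protein gamma subunit (-0.33), Cdh22, a cadherin (-0.35), and Nr2f2, an orphan nuclear receptor (-0.78), also differed. Nr2f2 had a genotype difference of -0.11 under nZFP (adjusted p = 0.66), against 0.55 and 0.79 under DBD and Estop. Over the 47 genes, the step from DBD to nZFP was larger in size in zQ175 for 34 and in WT for 13, and passed the test on its own for 22 in zQ175 and 7 in WT, beside 213 (1.34%) and 157 (0.987%) of all genes tested. The 47 were chosen by a difference made of the same values, so nothing is read from these counts.

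Because the repressor is directed at CAG repeats, the genes were described by the repeats in their annotated transcripts. At least 1 transcript with 6 or more uninterrupted CAG units was found for 177 of 15807 genes tested (1.12%), for 16 of the genes higher under nZFP (0.888%), for 34 of the genes lower (1.66%) and for 2 of the 47 (4.26%, AI593442 and Lrp8os2, with 6 units each). Of 37 genes with 10 or more units, 2 were higher and 5 lower under nZFP, and none was among the 47. In promoter windows from 250 bases before to 50 bases after the start (RefSeq, GRCm38.p6), 3 CAG units in a row, CAGCAGCAG or on the other strand CTGCTGCTG, were found for 1 of 38 matched genes among the 47 (2.63%), beside 481 of 27025 windows (1.78%). That window, of AI593442 at chr9:52679388-52679687 on the minus strand, is shown as the one promoter of the 47 with the motif, which is in capitals.
AI593442: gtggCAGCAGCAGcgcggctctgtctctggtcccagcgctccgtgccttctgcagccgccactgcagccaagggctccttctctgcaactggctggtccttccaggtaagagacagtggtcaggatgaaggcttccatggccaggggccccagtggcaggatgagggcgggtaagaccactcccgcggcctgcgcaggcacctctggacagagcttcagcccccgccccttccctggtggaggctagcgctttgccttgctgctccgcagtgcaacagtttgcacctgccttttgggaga
AI593442 had a genotype difference of -0.31 under nZFP, -0.73 under DBD and -0.71 under Estop. The match is a description of the sequence and says nothing of binding.

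The genotype difference under nZFP was also compared with that of the other injection and collection ages, in 1 fit of 76 nZFP libraries of all 5 paradigms with 16156 genes. Left out were zQ175 replicate 2 of 6M_10M and zQ175 replicate 5 of 6M_8M, a library labelled nZFP with 8.55 CPM of ZFP-30645, against 288 to 675 CPM in the other 7 zQ175 nZFP libraries of 6M_8M. In that fit 2049 genes were called in 6M_10M (injected at 6 and collected at 10 months), against 227 in 2M_6M, 1606 in 2M_8M, 2812 in 6M_8M and 4843 in 6M_12M. The 6M_10M comparison had 5 zQ175 libraries, fewer than any other paradigm (7 in 6M_8M), so no trend with age is read from these counts. No gene differed between 6M_10M and 6M_8M, or between 6M_10M and 6M_12M, by edgeR at an adjusted p under 0.05, with 320 and 2148 genes at an unadjusted p under 0.05. Between 6M_10M and 2M_6M, which share 4 months of treatment but differ in age at injection and at collection, 97 genes differed (0.600%), 27 with a higher and 70 with a lower fold change in 6M_10M. Age at injection and age at collection cannot be told apart in this pair.

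**Figure D5:**
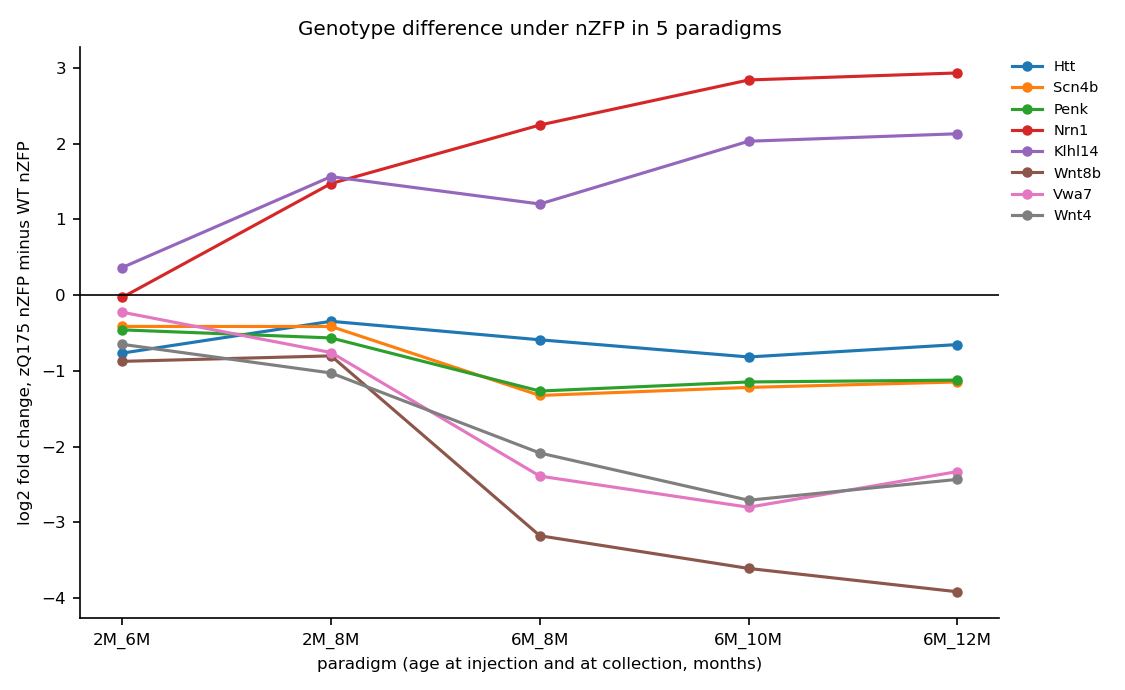
Log2 fold change (zQ175 minus WT) under nZFP of 8 genes in the 5 paradigms, named by months of age at injection and collection. Points are fitted values and lines join the paradigms of a gene. For Scn4b, Penk, Nrn1, Klhl14, Wnt8b, Vwa7 and Wnt4 the difference is nearer to 0 in 2M_6M than in 6M_10M, and Htt lies between -0.82 and -0.34 throughout. Genes other than Htt were named by their values in 6M_10M or by this difference, so smaller values in 2M_6M are in part built in.

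Each named gene printed here from the 97 had a fold change of smaller size in 2M_6M than in 6M_10M, and those of Nrn1 and Igkv6-32 had the other sign there. Named genes were chosen mostly by their size or p in 6M_10M, or by this difference itself. The smaller size in 2M_6M is thus in part built in, and nothing is read from its being shared. Nrn1 was at 2.84 in 6M_10M and -0.03 in 2M_6M (difference 2.87, SE 0.36, adjusted p = 9.7e-08), Vwa7 at -2.80 and -0.22 (-2.58, SE 0.39), Wnt8b at -3.61 and -0.87 (-2.74, SE 0.51) and Wnt4 at -2.71 and -0.65 (-2.06, SE 0.38). Klhl14 was at 2.03 in 6M_10M and 0.37 in 2M_6M (1.67, SE 0.42, adjusted p = 0.0353). Among identity genes, Scn4b was at -1.22 in 6M_10M and -0.41 in 2M_6M (-0.81, SE 0.17, adjusted p = 0.00503), Penk at -1.15 and -0.46, Adora2a at -0.74 and -0.27, Ppp1r1b at -0.70 and -0.25, and Drd1 at -0.53 and -0.23. Igkv6-32 was among the 97 as well (4.86 and -2.82), on few libraries. Htt had -0.82 in 6M_10M and -0.76 in 2M_6M (difference -0.05, SE 0.22, adjusted p = 0.999), -0.34 in 2M_8M, -0.59 in 6M_8M and -0.65 in 6M_12M. Onecut1 (5.85 and 2.64, adjusted p of the difference 0.0652) and Shox2 (4.86 and 2.47, 0.0583) did not pass.

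No gene had a genotype difference under nZFP that differed between males and females by edgeR at an adjusted p under 0.05, with 391 genes at an unadjusted p under 0.05; the zQ175 group held 3 males and 2 females, which limits this test.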

How the data were processed

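Bulk RNA-seq was made from striata of single hemispheres (polyA-selected, stranded libraries per the series' design text). The authors deposited 1 table of expected counts per gene, made with RSEM on GRCm38 per the submitters' processing notes (no version, and no strand setting for the counting, is given there). Of 41129 gene entries 40255 carried a symbol; 6 vector entries, 0.127 to 0.278% of each nZFP library of 6M_10M, stayed out of library sizes and tests. The deposited expected counts were 90.3% whole numbers and were rounded. FPKM values were not used.

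The quasi-likelihood test of edgeR 4.0.16 (R 4.3.3) was fitted to 44 libraries in 6 groups with sex as a covariate, after filterByExpr and TMM scaling. Benjamini-Hochberg adjustment was over all genes tested, with a threshold of 0.05. A prior count of 2 entered only the log CPM behind the index of transcript length. Adjusted p-values in the text are from this test unless another is named. The SE printed with a log2 fold change was its size divided by the square root of the test's F statistic. It is not a standard error taken from the fitted coefficient. For genes near 0 in 1 genotype, such as Onecut1 and Hoxc4, it is not read as the precision of the fold change. CPM values were computed from the same counts. Replicates were separate mice per the labels. In simulated data with these groups, 85 of 100 genes changed 1.5-fold and 97 of 100 changed 2-fold were recovered for the genotype difference under nZFP, with 12 of 15577 unchanged genes called. The changed genes were drawn from those averaging at least 1 CPM, and only zQ175 nZFP libraries were altered. Hemispheres of a mouse were drawn independently, and far fewer genes changed than were called in the data. These rates thus do not carry over to genes under 1 CPM or to the real comparison as a whole.

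The members and the 37 gene lists were chosen with earlier results of these data known. Genes named were Htt and Htt.HD, the 12 largest called fold changes in each direction at a mean of at least 1 CPM without predicted symbols, up to 4 per list by smallest p, 6 in each direction against the control viruses, and 3 in each direction per difference between paradigms; members that fill out a list were named after their values were seen. Some named genes are not reported here. Alternatives were RLE scaling, DESeq2 1.42.0, limma 3.58.1 voom with the mouse as a block, other filters, added covariates and left-out libraries.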

Additional observations from a re-analysis of the deposited data

Results flagged for a closer look

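A single library lay far from the rest of its genotype in 27 of 332 groups of values (164 named genes and 2 vector entries, by genotype). The rule used flags about 1 in 20 groups of independent, normally distributed values. CPM of named genes, some near 0, are not such values, so no excess is read from the count. WT replicate 5 accounted for 10 of the 27. In WT replicate 5 these were Abhd11os at 12.42, Cacng4 at 142.4, Cplx2 at 1683, Enkur at 0.8555, Igkv1-135 at 20.8, Kcnj8 at 6.343, Mal at 434.6, Pcdhb12 at 4.528, Pde1b at 1461 and Ptprv at 7.971 CPM. The value was the lowest of its genotype for the identity and channel genes Pde1b and Cacng4 and the highest for the myelin gene Mal. Without this library 39 identity genes were still lower. In WT replicate 2 Igkv6-32 was at 3.49, Itpr1 at 1432 and S100b at 114.1 CPM, in WT replicate 3 Gpr17 at 43.63 and Lcn2 at 1.925 CPM, and in WT replicate 7 Clic6 at 9.475, H2-K1 at 69.53 and Igkv6-15 at 2.003 CPM. Gng4 was at 15.4 CPM in WT replicate 1 and Lck at 1.425 CPM in WT replicate 8. Among zQ175 libraries, Gabra5 was at 35.58 and Sesn1 at 50.78 CPM in replicate 3, Igkv6-15 at 26.43 and Prlr at 0.1147 CPM in replicate 4, Klhl14 at 3.65 CPM in replicate 6, and the endothelial gene Esam at 4.959 and the pericyte channel Kcnj8 at 2.91 CPM in replicate 8.

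For 28 named genes the genotype difference under nZFP differed between 6M_10M and 2M_6M in the test of that difference, given here as 6M_10M minus 2M_6M on the log2 scale. It was negative for Abhd11os (-1.854), Adora2a (-0.47056), Cdkn1a (-0.71038), Ddit4l (-1.1704), Drd1 (-0.29918), Il2rb (-1.7281), Kcnh3 (-0.39194), Pde1b (-0.33764), Penk (-0.68803), Ppp1r1a (-0.56054), Ppp1r1b (-0.45639), Rgs14 (-0.72516), Rspo1 (-1.093), Scn4b (-0.80555), Sec14l3 (-1.4777), Tmem114 (-1.8826), Vwa7 (-2.5757), Wnt4 (-2.0594) and Wnt8b (-2.7352). It was positive for Cbx8 (0.71769), Igkv6-32 (7.6832), Kazald1 (1.6626), Kcnj3 (0.55925), Klhl14 (1.6681), Nrn1 (2.8716), Pcdh20 (0.92761), Pcdhb20 (0.50482) and Sfmbt2 (1.3212).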

How the results depend on the processing

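The genotype difference under nZFP (3864 genes) stayed within 1.5 times that count in the other scalings, filters, covariates and left-out libraries tried (2840 to 5135, and 3110 to 4116 without 1 library), and was 2049 in the fit of the nZFP groups of the 5 paradigms. The count against the control viruses (47) was 101 with DESeq2, 26 with no filter on low counts, 21 with zQ175 nZFP replicate 2 kept, 6 with WT DBD replicate 2 kept, 18 without sex and 137 with the length index added, and 15 to 56 without 1 library. The median size under nZFP of genes chosen under Estop (72.7%) was 80.8% with zQ175 nZFP replicate 2 kept, 77.4% without the libraries of low length index and 71.0 to 75.3% without 1 library. Genes that differed between 6M_10M and 6M_8M numbered 0 or 1 without 1 library. The difference in ZFP-30645 (zQ175 minus WT) was -167.3 CPM and passed the test with replicate 2 kept, and ran from -173.4 to -106.6 CPM without 1 library; that in WPRE was 39.38 CPM with replicate 2 kept and ran from -292.7 to -209.6 CPM without 1 library. The causes were not tested.

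Same-numbered zQ175 and WT nZFP libraries did not deviate together (correlations -0.195 to 0.0123), so the numbers were not taken as pairs. With the replicate number as a block, 3880 genes differed under nZFP, 5211 under DBD, 5636 under Estop and 47 against the control viruses (35 of them shared), 3155 Estop-chosen genes were called under nZFP with a median size of 75.29%, and 0, 0 and 78 genes differed from 6M_8M, 6M_12M and 2M_6M.

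Of 171 named genes, 143 passed the threshold, and 108 kept direction and call in every alternative. The sign changed for Igkv6-15 without zQ175 replicate 4 (-1.883, the lowest of -1.883 to 6.503 without 1 library), Rec8 with replicate 2 kept (0.1634) and without WT replicate 6 (0.005151), zQ175 replicate 1 (0.004773) or zQ175 replicate 8 (0.06181; -0.1599 to 0.06181 without 1 library), and, with replicate 2 kept, for Uqcrb (0.05324), Ndufs3 (0.1831), Ndufb10 (0.2624), Cd63 (0.162), H2-DMa (0.01113) and Psmb8 (0.2427). It also changed for Cd79b (0.01672) and Cd79a (0.3074) with the block, and for Cd79a without WT replicate 5 (0.1187), WT replicate 7 (0.2263), zQ175 replicate 1 (0.1826) or zQ175 replicate 3 (0.1943), with -0.4393 to 0.2263 without 1 library. At 32.3 to 46.2 M counts per nZFP library, a gene near 0.1 CPM rests on a few reads.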
